A study of Homo sapiens with 4 samples.

Results

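The genes described here code for the machinery of autophagy and for its cargo receptors. They were chosen by name, as 43 symbols covering the steps from initiation to cargo capture. The choice was made with earlier results of these data known, so the list is not independent of them. All 43 had a row among the 20515 genes of the count table. Each of the 43 passed the filter on low counts, with 276 to 53088 counts per gene and library. Poly(A) RNA was sequenced from T47D, an established line of human luminal breast cancer cells. The groups were 2 libraries of cells treated with baicalein, a flavone from the roots of Scutellaria baicalensis, and 2 libraries of cells whose treatment is labelled as none. The labels state no dose, duration or vehicle. Nor do they tie libraries to independent cultures, so the p-values reflect the scatter of these libraries alone, and that scatter may be technical.

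Autophagy encloses part of the cytoplasm in a double membrane and delivers it to the lysosome. The ULK kinase complex starts the process, a lipid kinase complex built around PIK3C3 marks the membrane with phosphatidylinositol 3-phosphate (PI3P), and proteins that read this lipid bring in lipid transfer proteins and the conjugation enzymes. These enzymes attach ubiquitin-like proteins of the ATG8 family (LC3 and GABARAP) to the growing membrane. Cargo receptors such as p62, the product of SQSTM1, bind ATG8 proteins on one side and cargo on the other and are themselves degraded with it. Several of these genes are known targets of the transcription factors TFEB and TFE3, and SQSTM1 is also a known target of the oxidative stress regulator NRF2.

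Baicalein libraries held 56732569 and 38597207 counts in all, and control libraries 45341857 and 45618604. Of the 9 luminal epithelial markers examined, 9 averaged at least 1 CPM (counts scaled to a common library size) in controls, and their summed level was 7295 and 7412 CPM in baicalein libraries, against 12879 and 14177 CPM in control libraries, with 7 of the 9 lower. Markers of other cell types were few. Basal markers (2 of 4 analysed) summed to 1.13 and 1.48 CPM with baicalein, against 4.76 and 5.70 CPM in controls, and leukocyte markers (3 of 5 analysed) to 0.713 and 0.752 CPM, against 1.48 and 1.72 CPM. No row was analysed for any of 4 endothelial markers. Fibroblast markers (3 of 5 analysed) summed to 151 and 141 CPM with baicalein, against 90.4 and 101 CPM in controls, nearly all from COL1A1. Control 1 stood apart in RN7SK, a non-coding RNA, with 34.7 CPM before scaling, against 4.67 CPM in control 2. Mitochondrially encoded genes took 9.16% and 8.89% of counts in baicalein libraries, against 7.95% and 8.39% in control libraries. The part of these differences in the results below was not tested.

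Promoter sequences of the 2 members with the largest rises and of a second ATG8 gene are shown first, since these 3 genes recur in the results. Each is the stretch of 250 bases before a transcription start in RefSeq (build GRCh38.p14), read 5′ to 3′ on the gene's strand, and capitals mark matches to a searched motif. The window of MAP1LC3B is chr16:87392086-87392335 (plus strand), that of SQSTM1 chr5:179820655-179820904 (plus strand, the most downstream of its listed starts) and that of GABARAPL1 chr12:10212627-10212876 (plus strand).
MAP1LC3B: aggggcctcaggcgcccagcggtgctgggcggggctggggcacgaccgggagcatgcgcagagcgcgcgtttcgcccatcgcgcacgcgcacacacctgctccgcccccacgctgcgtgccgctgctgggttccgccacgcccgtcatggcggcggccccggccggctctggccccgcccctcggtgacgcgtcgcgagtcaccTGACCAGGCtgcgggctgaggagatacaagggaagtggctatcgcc
SQSTM1: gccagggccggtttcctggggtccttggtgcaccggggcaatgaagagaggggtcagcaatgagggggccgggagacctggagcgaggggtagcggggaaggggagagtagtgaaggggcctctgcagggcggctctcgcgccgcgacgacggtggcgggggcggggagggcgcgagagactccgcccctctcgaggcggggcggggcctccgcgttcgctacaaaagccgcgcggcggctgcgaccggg
GABARAPL1: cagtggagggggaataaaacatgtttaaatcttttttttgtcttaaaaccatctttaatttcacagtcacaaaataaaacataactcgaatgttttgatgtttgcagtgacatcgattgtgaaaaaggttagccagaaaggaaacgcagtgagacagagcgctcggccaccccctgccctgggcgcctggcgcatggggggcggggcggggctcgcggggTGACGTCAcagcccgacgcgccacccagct

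The promoters of MAP1LC3B and SQSTM1 were rich in G and C (74.8% and 73.6% of bases), whereas that of GABARAPL1 had 51.6%. Motifs were searched on both strands of 50 promoters of 39 members that the reference table holds, and of all 35116 promoters in it. The antioxidant response element core TGACNNNGC stood in MAP1LC3B from 46 to 38 bases before the start, and in 4 of the 50 member promoters (ATG101, CALCOCO2 and RETREG1 besides), against 10.9% of all promoters. GABARAPL1 held the cAMP response element TGACGTCA from 30 to 23 bases before the start, 1 of 50 member promoters, against 1.65% of all. The E-box CACGTG, the core of the element bound by TFEB and TFE3, was found in ATG14 and ATG3 (2 of 50, against 6.34%), and the longer TCACGTGA, which contains it, in 0 of 50 (0.854% of all). The C/EBP-ATF motif TGATGNAA was in 0 of 50 member promoters and in 3.14% of all. These are matches of letters in a short window and nothing more.

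In baicalein-treated cells 27 of the 43 autophagy genes were higher (62.8%), where 37.4% of all 18369 tested genes were higher in edgeR's quasi-likelihood test with a Benjamini-Hochberg adjusted p under 0.05. By the same test 11 members were lower (25.6%), against 37.6% of all tested genes, and 5 did not pass. In either direction 38 members were called, in a comparison where 75.0% of all tested genes were. The median log2 fold change of the members, baicalein over control, was 0.48, and that of all tested genes 0.00171. At least 2-fold higher were 12 members (27.9%), against 12.2% of all tested genes. Only ATG16L2 was at least 2-fold lower (2.33% of members, against 15.2% of all tested genes). Both baicalein libraries lay above both controls in 28 members, where 43.4% of all tested genes did so, and below both in 14, where 43.5% of all tested genes did. No member fell by more than 1.32 on the log2 scale, and none reached a log2 fold change of 3. Because CPM values are shares of a library, a change in the total RNA per cell would not show in them. Libraries were not of single cells, so more RNA from a gene per cell and a changed mix of cells cannot be told apart.

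**Figure D1:**
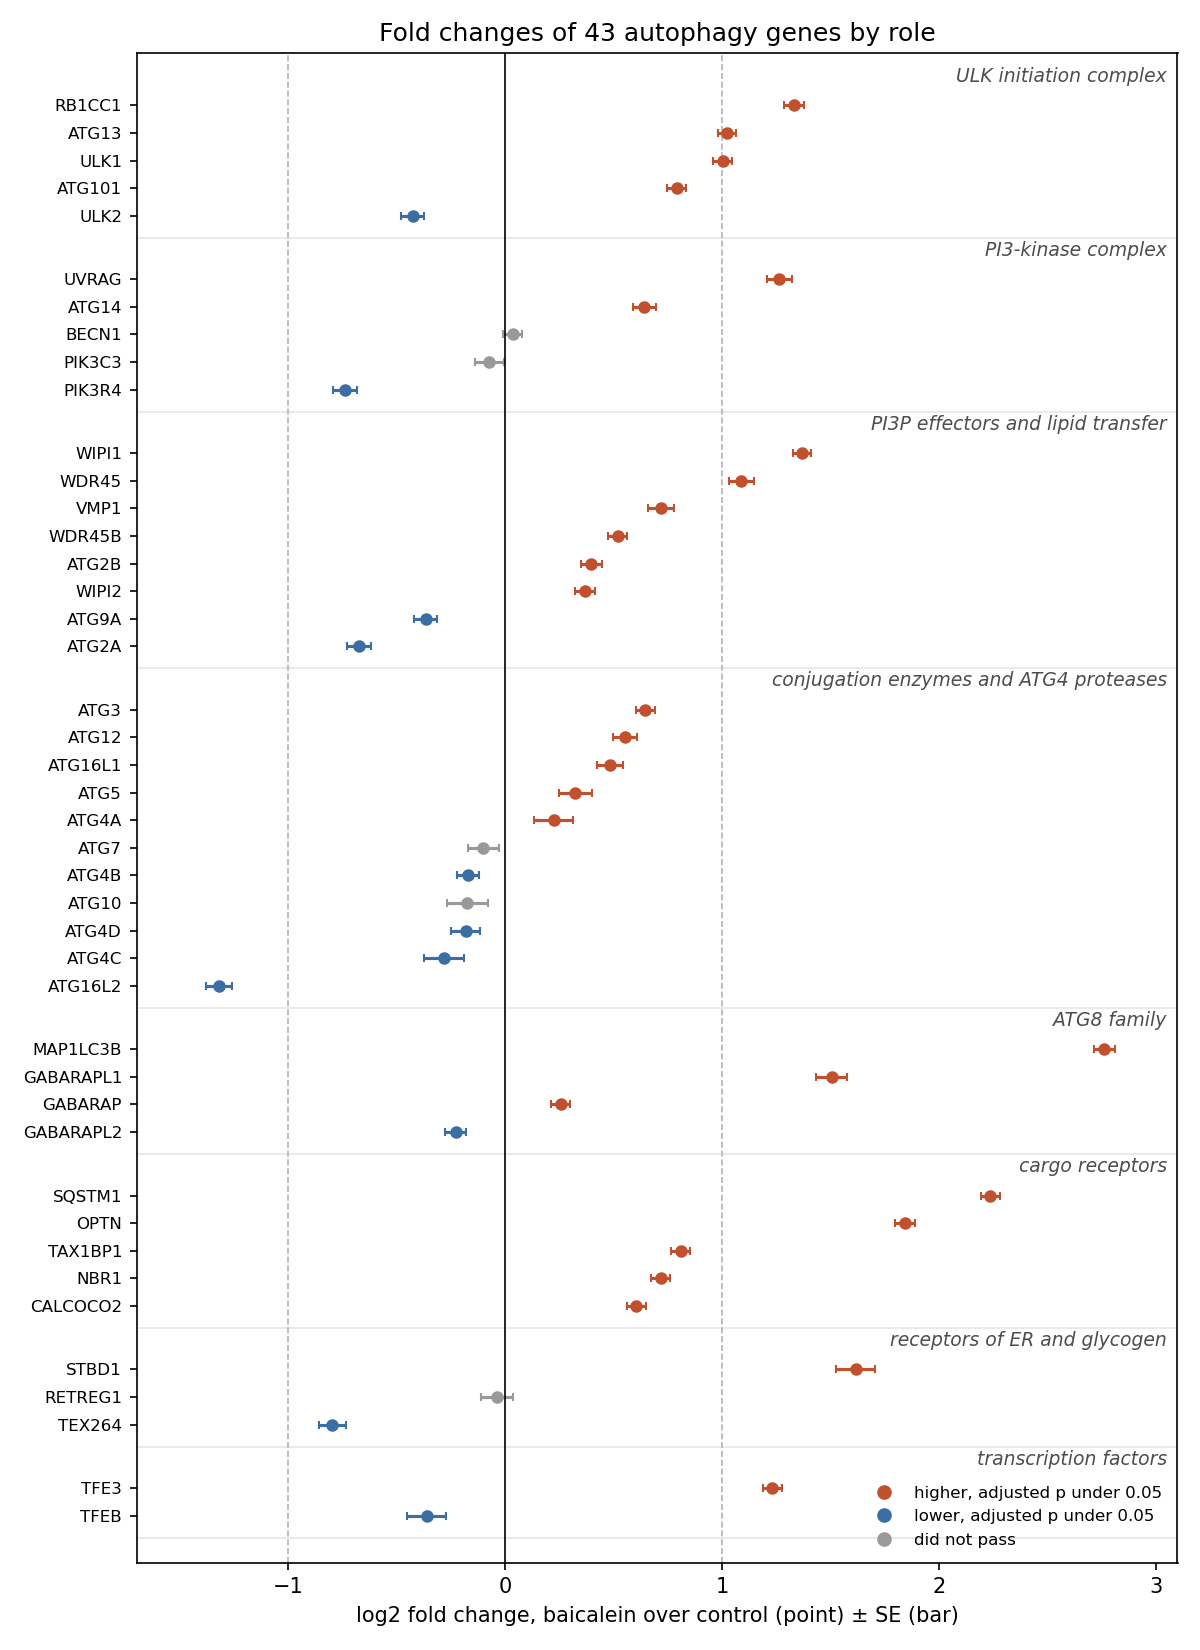
Log2 fold change (baicalein over control, horizontal axis) of the 43 autophagy genes, grouped by role, as points with bars of 1 SE from edgeR; dashed lines mark 2-fold. MAP1LC3B (2.76) and SQSTM1 (2.24) lie farthest to the right, ATG16L2 (-1.32) farthest to the left, and the 5 cargo receptors all lie right of 0.

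**Figure D2:**
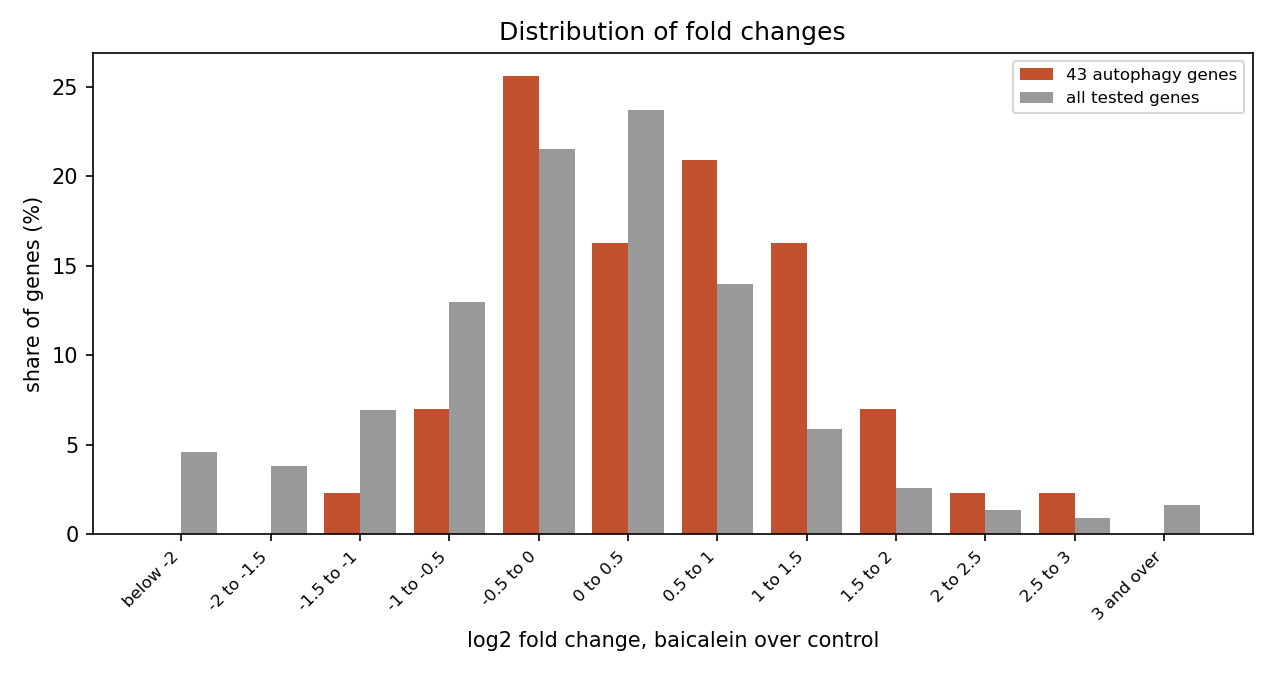
Share of genes (vertical axis, %) in bins of log2 fold change for the 43 autophagy genes and for all 18369 tested genes. Of the members 16.3% fall between 1 and 1.5, against 5.88% of all tested genes, and no member lies below -1.5.

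The ULK complex is the kinase assembly that receives nutrient and energy signals. Of its 5 genes 4 were higher and ULK2 was lower, where 37.4% of all tested genes were higher and 37.6% lower. RB1CC1, which codes for the large scaffold subunit (chromosome 8, positions 52622456 to 52745843 of GRCh38), had 234 and 242 CPM in baicalein libraries, against 96.3 and 93.0 CPM in control libraries, which is 1.33 higher on the log2 scale (SE 0.04, adjusted p = 2.11e-17). The kinase gene ULK1 (chromosome 12, positions 131894651 to 131923167) had 206 and 197 CPM with baicalein, against 99.0 and 102 CPM in controls. The adaptor genes ATG13 and ATG101 had log2 fold changes of 1.02 and 0.79. ATG13 stood at 139.9 and 138 CPM in baicalein libraries, against 68.5 and 68.01 CPM in control libraries. For these 4 genes both baicalein libraries lay above both controls, as in 43.4% of all tested genes. ULK2, which codes for a kinase closely related to ULK1, went the other way, with 35.8 and 34.1 CPM in baicalein libraries, against 47.8 and 46.3 CPM in controls (log2 fold change -0.43, SE 0.05, adjusted p = 1.89e-07). Within a library and per exon length, ULK1 exceeded ULK2 by a factor of 7.43 and 7.50 with baicalein, against 2.68 and 2.86 in controls.

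The lipid kinase complex was divided. UVRAG, a subunit that directs the kinase to endosomes, rose to 64.2 and 64.2 CPM with baicalein, against 28.3 and 25.2 CPM in controls (log2 fold change 1.26, SE 0.06, adjusted p = 4.00e-15). ATG14, the subunit that directs it to sites of autophagosome formation, had 51.4 and 50.2 CPM, against 33.2 and 31.9 CPM in controls (log2 fold change 0.64). PIK3R4, which codes for the regulatory subunit of the kinase, fell to 26.3 and 25.7 CPM, against 43.5 and 43.5 CPM in controls (log2 fold change -0.74, SE 0.05, adjusted p = 2.60e-11). The catalytic subunit gene PIK3C3 had 18.3 and 18.7 CPM with baicalein, against 19.6 and 19.2 CPM in controls, and did not pass (log2 fold change -0.07, SE 0.07, adjusted p = 0.340). BECN1, the scaffold of the complex, likewise did not pass, with 87.7 and 85.2 CPM, against 84.0 and 84.8 CPM (log2 fold change 0.04, SE 0.04, adjusted p = 0.474). Of ATG14 and UVRAG, which bind the kinase in separate complexes, ATG14 had 1.01 and 0.982 times the level of UVRAG per exon length with baicalein, against 1.48 and 1.59 times in controls.

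Among genes for PI3P-binding, lipid transfer and scramblase proteins, 6 of 8 were higher and 2 lower (37.4% and 37.6% of all tested genes). WIPI1, which codes for a PI3P-binding propeller protein (chromosome 17, positions 68420948 to 68457513), had 165 and 169 CPM in baicalein libraries, against 64.4 and 64.9 CPM in control libraries, which is 1.37 higher on the log2 scale (SE 0.04, adjusted p = 5.50e-18). WIPI2, the family member known to recruit ATG16L1, had 81.3 and 82.0 CPM, against 61.7 and 65.0 CPM in controls (log2 fold change 0.37). WDR45 and WDR45B, which code for the other propeller proteins of this family, had log2 fold changes of 1.09 and 0.52. WDR45 reached 44.6 and 41.2 CPM, against 20.1 and 20.3 CPM in controls, and WDR45B reached 207 and 215 CPM, against 148 and 146 CPM. All 4 members of the propeller family thus rose, WIPI1 the most.

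The lipid transfer proteins ATG2A and ATG2B move lipids from the endoplasmic reticulum into the growing membrane, and their genes moved apart. ATG2A fell to 32.3 and 32.4 CPM with baicalein, against 49.7 and 53.5 CPM in controls (log2 fold change -0.67, SE 0.05, adjusted p = 1.44e-10). ATG2B rose to 76.7 and 73.3 CPM, against 58.3 and 55.8 CPM in controls (log2 fold change 0.40, SE 0.05, adjusted p = 1.38e-07). Per exon length ATG2A stood at 0.79 and 0.829 times ATG2B with baicalein, against 1.60 and 1.80 times in controls. The order of the pair was turned round only on this measure, which depends on the exon lengths used. In CPM ATG2B was above ATG2A in every library. ATG9A, which codes for the scramblase of autophagosome seed vesicles, had 32.0 and 31.2 CPM, against 41.1 and 40.5 CPM in controls (log2 fold change -0.37). VMP1, which codes for a scramblase of the endoplasmic reticulum, had 205 and 234 CPM, against 139 and 128 CPM in controls (log2 fold change 0.72), the widest spread between baicalein libraries of this role (SD 20.7 CPM, n = 2).

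Changes in the conjugation machinery were small. Of its 11 genes 5 were higher, 4 lower and 2 did not pass, where 37.4% of all tested genes were higher and 37.6% lower. The median log2 fold change was -0.10, and 10 of the 11 lay between -0.28 and 0.65. ATG3, which codes for the enzyme that transfers ATG8 proteins to lipid, had 128 and 129 CPM with baicalein, against 85.4 and 79.0 CPM in controls (log2 fold change 0.65, SE 0.04, adjusted p = 9.26e-12). ATG12, ATG16L1 and ATG5, whose products form the complex that directs this transfer, had log2 fold changes of 0.55, 0.48 and 0.32. ATG7, the gene of the activating enzyme, had 16.5 and 16.7 CPM, against 18.5 and 17.1 CPM in controls, and did not pass (log2 fold change -0.10, SE 0.07, adjusted p = 0.215). ATG10, which codes for the enzyme that joins ATG12 to ATG5, had 7.41 and 7.41 CPM, against 8.64 and 8.08 CPM in controls, and did not pass either (log2 fold change -0.17, SE 0.09, adjusted p = 0.0937).

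The exception in size was ATG16L2, a less studied relative of ATG16L1 (chromosome 11, positions 72814308 to 72843674). It fell to 21.6 and 19.7 CPM with baicalein, against 50.3 and 53.4 CPM in controls (log2 fold change -1.32, SE 0.06, adjusted p = 4.13e-15). ATG16L1 had 30.4 and 30.7 CPM, against 21.6 and 22.1 CPM in controls. Per exon length ATG16L1 was 2.00 and 2.23 times ATG16L2 with baicalein, against 0.611 and 0.591 times in controls. Exons of ATG16L2 share 680 bases with those of FCHSD2 on the opposite strand, which fell as well (log2 fold change -0.66).

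The ATG4 proteases trim ATG8 proteins before conjugation and release them afterwards. Their 4 genes differed little. ATG4A had 14.8 and 12.5 CPM with baicalein, against 12.4 and 11.2 CPM in controls (log2 fold change 0.22, SE 0.09, adjusted p = 0.0287), a call lost without baicalein 1 (adjusted p = 0.481) or control 2 (adjusted p = 0.0979) and in DESeq2 (adjusted p = 0.124). It was also lost when libraries were scaled by the upper quartile (adjusted p = 0.0527) or by library totals (adjusted p = 0.243). ATG4B had 44.4 and 44.1 CPM, against 48.2 and 51.5 CPM in controls (log2 fold change -0.17, adjusted p = 0.00521), which no longer passed without baicalein 1 (adjusted p = 0.0714) or baicalein 2 (adjusted p = 0.0804). ATG4C had 7.84 and 8.94 CPM, against 10.2 and 10.1 CPM in controls (log2 fold change -0.28, adjusted p = 0.00825), a call lost without baicalein 1 (adjusted p = 0.211) and in DESeq2 (adjusted p = 0.0813). ATG4D had 22.4 and 20.5 CPM, against 23.8 and 25.1 CPM in controls (log2 fold change -0.18, adjusted p = 0.0157). Its call was lost without baicalein 2 (adjusted p = 0.268) or control 2 (adjusted p = 0.0697) and in DESeq2 (adjusted p = 0.0834).

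The ATG8 family held the largest change of all members. MAP1LC3B, which codes for LC3B, the protein most used as a marker of autophagosomes (chromosome 16, positions 87383995 to 87404779), had 390.2 and 405 CPM in baicalein libraries, against 58.4 and 58.8 CPM in control libraries. The difference was 2.76 on the log2 scale (SE 0.05, adjusted p = 1.63e-22), or 6.79-fold, and 98.0% of tested genes had a lower log2 fold change. GABARAPL1 rose to 28.2 and 28.997 CPM, against 9.89 and 10.2 CPM in controls (log2 fold change 1.51, SE 0.07, adjusted p = 9.09e-15). The other two GABARAP genes moved by less than 1.2-fold in opposite directions. GABARAP had 86.1 and 85.1 CPM, against 71.8 and 71.6 CPM in controls (log2 fold change 0.26, SE 0.04, adjusted p = 2.02e-05). GABARAPL2 had 55.7 and 53.5 CPM, against 65.7 and 62.5 CPM in controls (log2 fold change -0.23, SE 0.05, adjusted p = 0.000258).

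These changes altered the make-up of the family. Of the CPM per kilobase of exon summed over the 4 genes, MAP1LC3B supplied 53.7% and 55.0% in baicalein libraries, against 16.5% and 16.8% in control libraries. GABARAP supplied 27.8% and 27.1% with baicalein, against 47.5% and 48.0% in controls, and GABARAPL2 13.4% and 12.7%, against 32.4% and 31.3%. GABARAPL1 stayed a minor part, with 5.04% and 5.12%, against 3.62% and 3.81%. MAP1LC3B2, a gene whose coding sequence is nearly identical to that of MAP1LC3B, had 3.58 and 3.09 CPM with baicalein, against 1.46 and 1.51 CPM in controls, and the split of reads between the pair is uncertain. MAP1LC3A, another LC3 gene, lay below the filter on low counts, with 0.128 and 0.134 CPM, against 0.212 and 0.0851 CPM in controls.

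**Figure D3:**
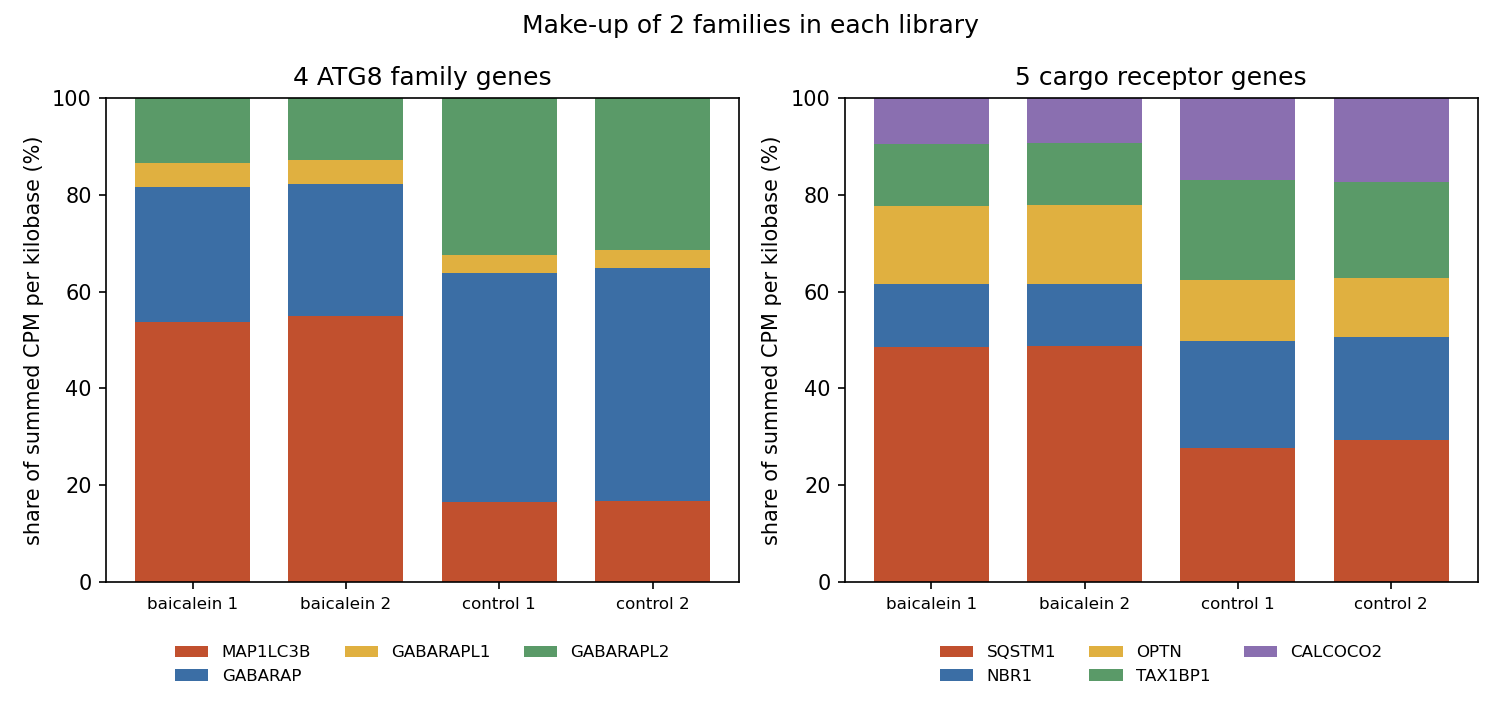
Share (vertical axis, %) of each gene in the summed CPM per kilobase of the 4 ATG8 family genes (left) and the 5 cargo receptor genes (right), 1 bar per library. MAP1LC3B takes 53.7% and 55.0% of its family in the baicalein libraries, against 16.5% and 16.8% in the control libraries, and SQSTM1 48.6% and 48.8%, against 27.7% and 29.3%.

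All 5 genes for receptors of ubiquitinated cargo were higher, as were 37.4% of all tested genes, with log2 fold changes from 0.60 to 2.24. SQSTM1, which codes for p62 (chromosome 5, positions 179806398 to 179838078), had 971 and 1003 CPM in baicalein libraries, against 203 and 215 CPM in control libraries, which is 2.24 higher on the log2 scale (SE 0.04, adjusted p = 1.81e-21). OPTN, which codes for optineurin, a receptor for damaged mitochondria and bacteria (chromosome 10, positions 13099449 to 13138308), rose to 218 and 226 CPM, against 62.7 and 60.8 CPM in controls (log2 fold change 1.84, SE 0.05, adjusted p = 7.36e-20). The other 3 rose by less than 2-fold. TAX1BP1 had 305 and 315 CPM, against 181 and 173 CPM in controls (log2 fold change 0.81), and CALCOCO2, which codes for the receptor NDP52, had 207 and 209.6 CPM, against 135 and 139 CPM (log2 fold change 0.60). NBR1, which codes for a receptor that works beside p62, had 284 and 288 CPM, against 177 and 171 CPM in controls (log2 fold change 0.72, SE 0.04, adjusted p = 9.70e-13). In each of the 5 genes both baicalein libraries were above both controls, as in 43.4% of all tested genes. Within the group SQSTM1 supplied 48.6% and 48.8% of CPM per kilobase with baicalein, against 27.7% and 29.3% in controls, and OPTN 16.2% and 16.3%, against 12.8% and 12.4%. The shares of NBR1, TAX1BP1 and CALCOCO2 were lower with baicalein although their levels were higher.

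Receptors of the endoplasmic reticulum and of glycogen did not move together. STBD1, which codes for a receptor that links glycogen to GABARAP proteins (chromosome 4, positions 76306026 to 76311599), rose to 18.3 and 20.9 CPM, against 6.22 and 6.51 CPM in controls (log2 fold change 1.62, SE 0.09, adjusted p = 1.67e-13). TEX264, a receptor for the endoplasmic reticulum, fell to 19.5 and 19.0 CPM, against 32.6 and 34.5 CPM in controls (log2 fold change -0.80, SE 0.06, adjusted p = 5.20e-11). RETREG1, which codes for another receptor of the endoplasmic reticulum, had 14.8 and 15.1 CPM, against 14.8 and 15.8 CPM in controls. It did not pass (log2 fold change -0.04, SE 0.08, adjusted p = 0.655) and was the member whose libraries overlapped between groups, as they did in 2412 of all 18369 tested genes.

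**Figure D4:**
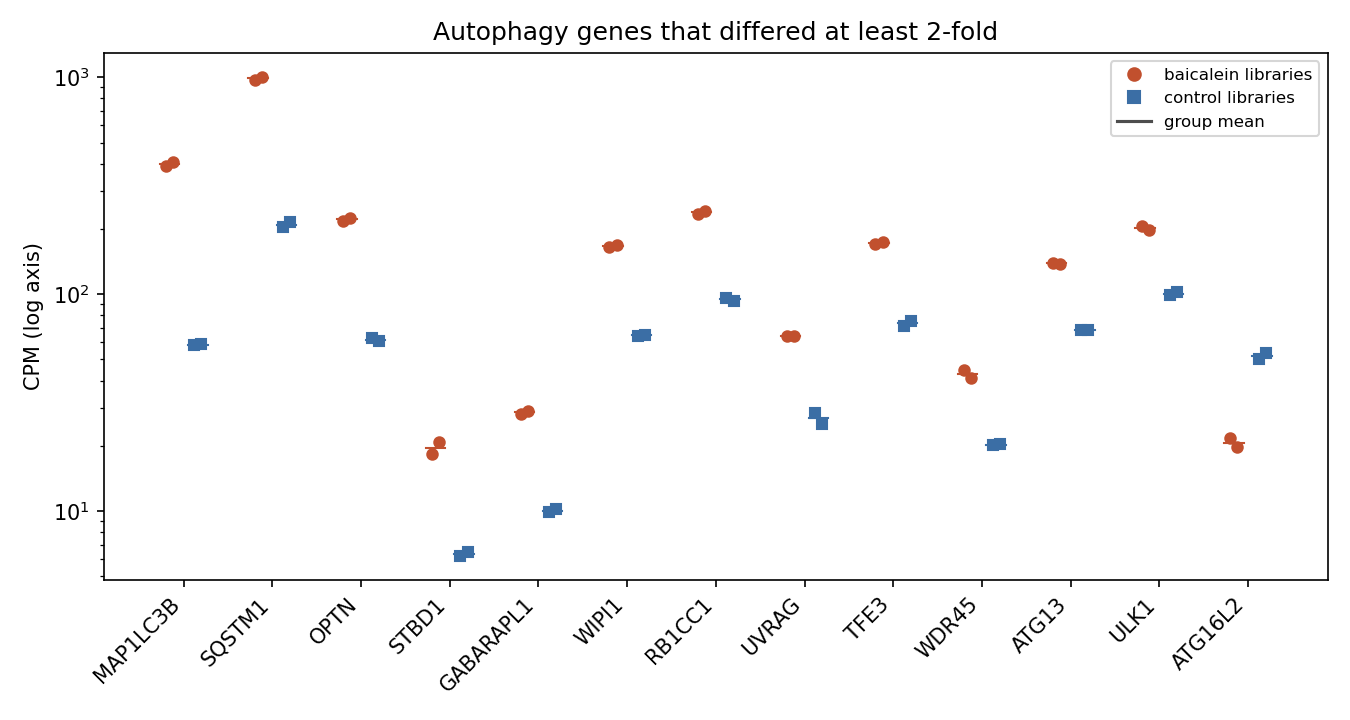
CPM (vertical log axis) in each baicalein and control library, with group means as lines, for the 13 autophagy genes that differed at least 2-fold. In 12 of them both baicalein libraries lie above both controls (43.4% of all tested genes), and in ATG16L2 both lie below (43.5%). The genes were picked for a called difference of this size, so separation of the groups nearly follows from the choice.

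The transcription factor genes TFE3 and TFEB moved in opposite directions. TFE3 (chromosome X, positions 49028726 to 49043486) had 170.0 and 175 CPM in baicalein libraries, against 71.5 and 75.2 CPM in control libraries, which is 1.23 higher on the log2 scale (SE 0.04, adjusted p = 7.02e-17). TFEB had 7.73 and 8.08 CPM, against 9.72 and 10.6 CPM in controls (log2 fold change -0.36, SE 0.09, adjusted p = 0.00104). Per exon length TFEB stood at 0.0345 and 0.0351 times TFE3 with baicalein, against 0.103 and 0.107 times in controls. These are RNA levels, and the activity of both factors is known to depend on their phosphorylation and place in the cell, which were not measured.

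Ratios of related genes within a library do not depend on how libraries are scaled to each other. In 12 of 13 such pairs the 2 baicalein libraries lay on one side of the 2 controls. Levels of single genes lay apart in the same way in most tested genes (43.4% above both controls, 43.5% below). Ratios of other pairs were not counted. With 2 libraries against 2 an exact permutation test cannot give a two-sided p below 0.333, so the ratios are given as a description. The largest difference between the groups was that of MAP1LC3B over GABARAP, with a log2 ratio of 0.95 and 1.02 in baicalein libraries, against -1.53 and -1.51 in control libraries. SQSTM1 over NBR1 came to 1.91 and 1.93, against 0.34 and 0.47 in controls, and WIPI1 over WIPI2 to 2.42 and 2.44, against 1.46 and 1.40. The exception was ATG4D over ATG4C, with 1.96 and 1.65 in baicalein libraries, against 1.67 and 1.77 in controls.

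**Figure D5:**
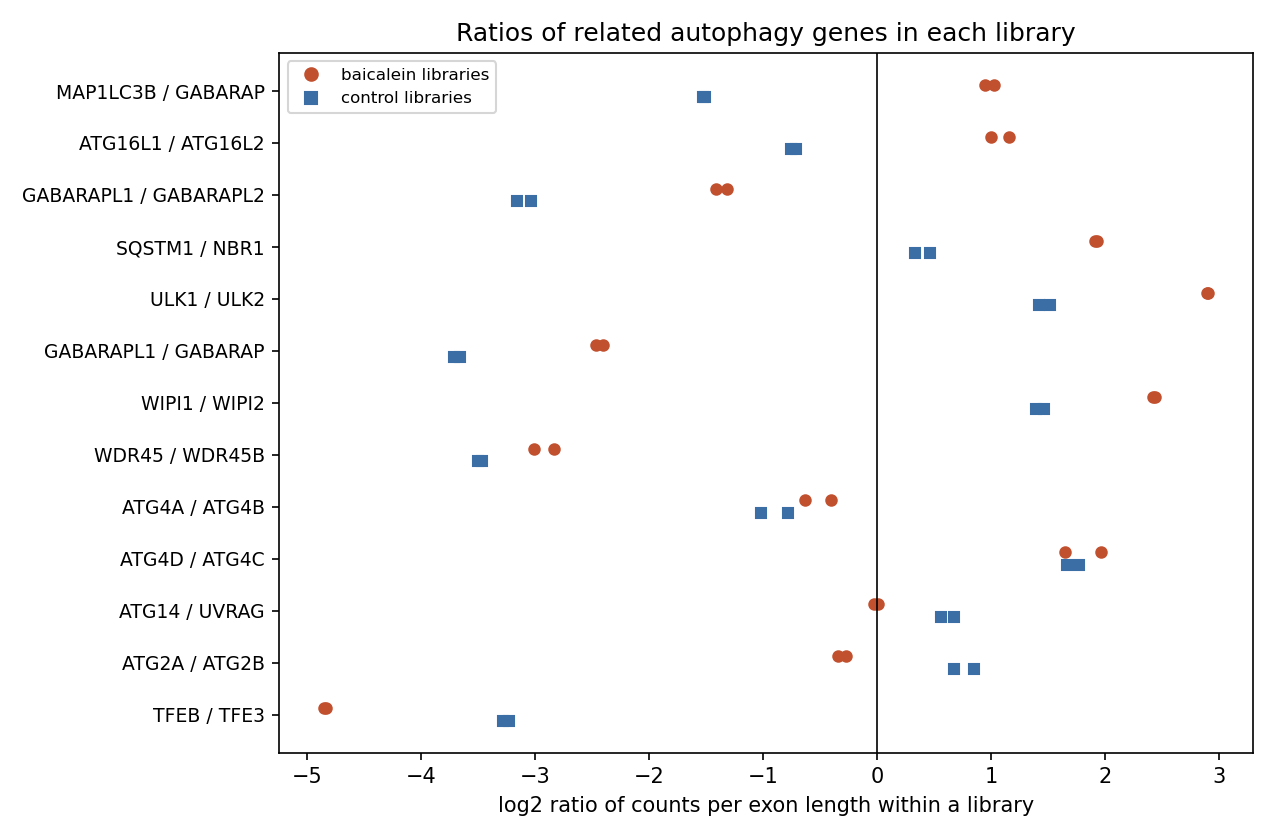
Log2 ratio of counts per exon length of 2 related genes (horizontal axis) within each baicalein library (circles) and control library (squares) for 13 pairs. The groups are apart in every pair except ATG4D over ATG4C, as are the levels of most single tested genes (43.4% above both controls, 43.5% below). ATG2A over ATG2B, ATG16L1 over ATG16L2 and MAP1LC3B over GABARAP change sign. In CPM, without exon lengths, ATG2A lies below ATG2B in every library.

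Per kilobase of exon, the order of the members differed between groups. In controls WDR45B stood first with a mean level of 41.6 ± 0.406 CPM per kilobase, before GABARAP with 31.6 ± 0.0684 and SQSTM1 with 27.3 ± 1.10 (SD, n = 2), and MAP1LC3B had 11.03 ± 0.0418. With baicalein SQSTM1 stood first at 129 ± 2.95 CPM per kilobase, MAP1LC3B second at 74.9 ± 2.02 and WDR45B next at 59.7 ± 1.64 (SD, n = 2). At the low end PIK3C3, ATG10 and TFEB held the last 3 places in both groups, with means of 1.21, 1.36 and 1.40 with baicalein and 1.28, 1.53 and 1.80 in controls. This order depends on the exon lengths used, 15198 bases for PIK3C3. In mean CPM PIK3C3 (18.5 with baicalein, 19.4 in controls) stood above ATG10 (7.41 and 8.36) and TFEB (7.91 and 10.1). Summed over the 43 genes, the level was 4968 and 5067 CPM in baicalein libraries, against 2606 and 2589.9 CPM in control libraries. Without MAP1LC3B and SQSTM1 the sums were 3607 and 3659 CPM, against 2344 and 2316 CPM.

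Other genes of the pathway were counted by list, beside 37.4% higher and 37.6% lower among all tested genes. Of 15 genes for fusion of autophagosomes with lysosomes, 9 were higher, 3 lower and 3 did not pass, with a median log2 fold change of 0.33. The tethering subunit gene VPS41, the GTPase gene RAB7A and the SNARE gene YKT6 rose with log2 fold changes of 0.84, 0.74 and 0.65, whereas VAMP8, the gene of another SNARE, fell with -0.83. Among 13 further receptors 9 were higher, 3 lower and 1 did not pass. CCPG1, which codes for a receptor of the endoplasmic reticulum, had 320.3 and 331 CPM with baicalein, against 101 and 96.6 CPM in controls (log2 fold change 1.72, SE 0.05, adjusted p = 3.21e-19). The mitochondrial receptor genes BNIP3, BNIP3L and BCL2L13 had log2 fold changes of 1.36, 1.17 and 0.88.

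Of 9 tested genes for other core proteins and regulators, 8 were higher and EI24 was lower (37.4% and 37.6% of all tested genes). DRAM1, a p53 target that codes for a lysosomal membrane protein, had 113 and 113 CPM in baicalein libraries, against 20.8 and 19.5 CPM in control libraries (log2 fold change 2.49, SE 0.05, adjusted p = 4.86e-21). TMEM41B, a scramblase that works with VMP1, had a log2 fold change of 1.83. TP53INP1 and TP53INP2, which code for related ATG8-binding proteins, had 1.39 and 1.35. In the list of nutrient-sensing kinases and their regulators 8 of 11 were higher and 3 lower, with a median log2 fold change of 0.28. RHEB, the GTPase that activates the kinase mTOR, rose with a log2 fold change of 1.06 and TSC1, which codes for part of its inhibitor, with 0.91, while STK11 fell with -0.48. AKT1S1 had 0.29.

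Regulators of TFEB and of autophagy transcription were higher in 9 of 10 tested cases and lower in 1 (37.4% and 37.6% of all tested genes). Their median log2 fold change was 0.98. RRAGD, which codes for a GTPase that brings TFEB and TFE3 to the lysosome and is a known target of both, had 38.2 and 41.1 CPM in baicalein libraries, against 3.20 and 3.06 CPM in control libraries. The difference was 3.66 on the log2 scale (SE 0.08, adjusted p = 2.01e-20). RRAGC, its relative, had 98.1 and 98.1 CPM, against 23.1 and 22.7 CPM in controls (log2 fold change 2.10). FNIP1 and FLCN, whose products form the complex that acts on these GTPases, had log2 fold changes of 2.35 and 1.79. RRAGA, by contrast, had 40.5 and 41.4 CPM, against 50.9 and 50.1 CPM in controls (log2 fold change -0.30).

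Exons of 24 of the 43 members overlap those of another gene in the table, in 20 cases on the opposite strand, and the labels do not say whether reads were counted by strand. MAP1LC3B shares 150 bases with FBXO31, which had 63.9 and 65.8 CPM with baicalein, against 34.2 and 35.8 CPM in controls (log2 fold change 0.89). SQSTM1 shares 1582 bases with MRNIP, which had 54.6 and 58.8 CPM with baicalein, against 65.3 and 64.2 CPM in controls, far below SQSTM1. NBR1 shares 463 bases with a non-coding gene, ENSG00000267002, which had 55.0 and 52.7 CPM, against 19.0 and 18.0 CPM in controls. WIPI1 shares 828 bases with ARSG, which had 27.8 and 28.5 CPM, against 28.1 and 28.3 CPM. Some neighbours stood above the member. ATG7 shares 1596 bases with VGLL4, which had 86.9 and 90.9 CPM with baicalein, against 43.1 and 44.3 CPM in controls (log2 fold change 1.02). ATG4D shares 341 bases with KRI1, which had 45.4 and 41.8 CPM, against 62.3 and 66.6 CPM in controls (log2 fold change -0.56). ATG10 shares 374 bases with RPS23, which had 424 and 420 CPM with baicalein, against 368 and 376 CPM in controls. BECN1 shares 300 bases with PSME3, which had 190 and 198 CPM, against 222 and 226 CPM. On the same strand, WDR45 shares 757 bases with PRAF2 (log2 fold change 0.19), and STBD1 shares 1986 bases with the read-through gene FAM47E-STBD1, which had 2.49 and 0.752 CPM with baicalein, against 0.593 and 1.17 CPM in controls. Also on the same strand, ATG9A shares 1833 bases with ENSG00000284820 (log2 fold change -0.03, did not pass) and TEX264 shares 184 bases with RAD54L2. RAD54L2 had 54.9 and 53.8 CPM with baicalein, against 29.2 and 28.2 CPM in controls (log2 fold change 0.92). The part of these neighbours in the members' values was not tested.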

How the data were processed

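RNA was measured in 4 T47D libraries. The deposited values are whole counts of reads per gene, not scaled by the authors to library size, for 20515 genes with a total of at least 10 counts. Tools named in the submitters' processing notes, without their roles, are RSEM 1.3.3, STAR 2.7.8a, cutadapt 2.3, DESeq2 1.34 and FastQC 0.11.8, with the build GRCh38. Annotation release and rounding are not stated there. Columns were matched to samples by the labels.

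The main test was the quasi-likelihood F test of edgeR 4.0.16 (R 4.3.3), robust, with TMM scaling and no covariates, on all 4 libraries. Of the genes, 18369 passed filterByExpr (minimum count 10) and 2146 did not. Benjamini-Hochberg adjustment ran over the genes that passed, and calls needed an adjusted p under 0.05. SE was taken as |log2 fold change| over the square root of F. CPM includes the TMM factors (0.964 to 1.04). Exon lengths are unions of exons in GENCODE release 29, which may differ from the release the authors used. Before TMM scaling, 3 counts in a single library equal 0.0529 to 0.0777 CPM, a limit of counting error only. Replicates of a group differed by more than counting error in part of the genes. The mean chi-square per gene was 2.43 in the baicalein pair and 9.61 in the control pair, over genes with at least 20 counts. The medians were far lower, at 0.702 in the baicalein pair and 1.385 in the control pair. The scripts were tested on simulated data with far fewer changed genes than were called here. Scaling where most genes change was therefore not covered.

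The members and lists were chosen with earlier results of these data known. Values per library are given for members that changed at least 2-fold, did not pass or belong to a pair, and each further list names up to 4 genes by smallest adjusted p. Genes named besides these were chosen after their values were seen. Processing was varied by scaling (library totals, upper quartile, size factors of DESeq2), filter (none, or 50 counts in 2 libraries), tool (limma-voom with limma 3.58.1, DESeq2 1.42.0), a stricter threshold of 0.01, a null of 1.5-fold, a replicate block, and omission of single libraries.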

Additional observations from a re-analysis of the deposited data

How the results depend on the processing

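Of the 43 members 36 kept their side of the threshold in all 13 settings other than the test against a 1.5-fold change, and the 7 that did not were ATG4A, ATG4B, ATG4C, ATG4D, ATG7, ATG10 and PIK3C3. Among the 36, BECN1 and RETREG1, which did not pass, changed sign, to -0.07 for BECN1 with library totals and to 0.01 for RETREG1 without control 2. No other member changed sign. Over those of these settings that used all 4 libraries, 26 to 27 members were higher and 9 to 14 lower. All tested genes called higher ranged there from 5928 to 7088 and those called lower from 6005 to 7735. The 14 lower members came with library totals, where 5928 of all tested genes were higher and 7735 lower, against 6866 and 6902 in the main test. Against a 1.5-fold change, 16 members were called higher and 4 lower, among 3090 higher and 3581 lower genes in all, and 21 and 2 of the related genes. That test asks for a larger change by construction. Scaling by library totals moved the median log2 fold change of all genes to -0.102 and that of the members to 0.38, and under it ATG7, ATG10 and PIK3C3 were lower. Without each library in turn, the members' counts were 26 to 27 higher and 9 to 11 lower, and the related genes called lower 7 to 12 (11 with all libraries, 7 without either baicalein library). For calls made in those fits, a lone library was taken to scatter as the 2 of the opposite group do. The log2 ratio of ATG4D over ATG4C, higher by 0.09 with baicalein, turned to -0.0701 without baicalein 1 and was 0.24 without baicalein 2. Same-numbered libraries did not deviate together (r = 0.0136 over genes), and the fit with the replicate number as a block called 27 members higher and 11 lower, with 6894 higher and 6909 lower genes in all. With 2 libraries a group, small changes such as those of the ATG4 genes are near what the test can separate, and RNA levels say nothing of autophagic flux.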
